A study of Rattus norvegicus with 12 samples.

Results

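The circles described here are small extrachromosomal circular DNAs (eccDNA) of rat back skin that overlap an exon or an intron of an olfactory receptor gene (Olr) or of a vomeronasal receptor gene of type 1 (Vom1r) or type 2 (Vom2r). They were chosen by annotation alone: an entry of the eccDNA list had to be typed as exon or intron and carry a gene symbol that starts with Olr, Vom1r or Vom2r and a number. Of 228353 listed eccDNA, 83890 lay in an exon or intron (genic circles), and 306 of these were receptor circles. They fell in 151 receptor genes, 99 Olr, 12 Vom1r and 40 Vom2r, on 19 chromosomes. A call is a circle with 1 or more supporting reads in a library, and the 306 entries gave 315 calls. In 28 entries 2 gene symbols were listed, and in 11 of these both were receptor genes, so calls summed by gene exceed calls of circles.

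All 12 libraries came from back skin of wild-type (WT) SD rats, 4 from untreated skin (control), 4 taken 7 days after the last of 2 weekly fractions of 5 Gy (5 Gy x2) and 4 taken 7 days after the last of 4 such fractions (5 Gy x4). The fractions were given as an electron beam, and the higher total dose also came with later sampling, so dose and time cannot be told apart. Nothing in the labels ties the 4 libraries of a group to separate animals, so p-values measure the spread between libraries, which may be technical. Circular DNA was enriched, linear DNA was digested with exonuclease, and the remainder was sequenced, so the libraries report where circles came from and carry no measure of gene expression; the skin label could therefore not be checked against marker genes.

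Olfactory receptors are G protein-coupled receptors by which sensory neurons of the nose detect odorants, and each such neuron expresses a single receptor gene out of a very large family. Vom1r and Vom2r receptors serve the vomeronasal organ, which senses pheromones and other social cues. The coding sequence of an Olr or Vom1r gene usually lies in a single exon, whereas a Vom2r gene has several coding exons, of which an early group encodes a long extracellular domain. Most of the genes lie in clusters of related copies and are largely silent outside the sensory epithelia.

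No sequence of the circles themselves was used here. As examples of DNA around these genes, windows at annotated starts of the Vom2r gene and the Olr gene with most circles are shown. Both are from RefSeq on the GRCr8 assembly, 250 bases before to 50 after the gene's start, 5' to 3'; capitals would mark a CG dinucleotide, and neither holds one. Vom2r37 is at chr1:102403687-102403986 (plus strand) and Olr1561, listed in RefSeq as Or5k8, at chr11:55113122-55113421 (plus strand). The circles were mapped to rn6, so their positions were not set against these windows. In the Olr1561 window the last 50 bases begin with atg, the letters of a start codon. Whether either annotated start is where transcription begins was not checked.
Vom2r37: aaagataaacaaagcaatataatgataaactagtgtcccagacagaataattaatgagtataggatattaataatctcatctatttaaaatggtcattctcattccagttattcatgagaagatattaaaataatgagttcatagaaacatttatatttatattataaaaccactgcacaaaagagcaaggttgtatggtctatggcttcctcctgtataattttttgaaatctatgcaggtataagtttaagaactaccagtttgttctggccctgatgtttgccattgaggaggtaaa
Olr1561: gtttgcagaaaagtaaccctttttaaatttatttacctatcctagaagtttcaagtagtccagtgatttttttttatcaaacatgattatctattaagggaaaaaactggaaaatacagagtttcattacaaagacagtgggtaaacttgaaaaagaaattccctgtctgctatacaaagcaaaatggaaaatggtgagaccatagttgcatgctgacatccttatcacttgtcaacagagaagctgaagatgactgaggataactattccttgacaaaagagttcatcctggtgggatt

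The Vom2r37 window had 30.0% G and C and the Olr1561 window 34.3%. A RefSeq window of this kind was matched for 129 of the 151 receptor genes with a circle, and their median G and C content was 37.0% (quartiles 33.3% and 41.0%, range 25% to 61.3%). The median was 36.7% in 225 receptor genes that the circle table names without an exon or intron circle, and 52.3% in 27103 windows of all other genes. The letters CG, read the same on either strand, were absent from 29.5% of the windows of receptor genes with a circle and from 4.90% of the windows of all other genes, with a median of 1 and 8 occurrences. By family the median G and C content was 35.3% for 83 Olr genes, 34.0% for 9 Vom1r genes and 38.7% for 37 Vom2r genes. These are values of windows at annotated starts, given without a test. Whether the starts were of the same kind in receptor genes and other genes was not checked.

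The libraries differed widely in size. Supporting reads ran from 35525 to 404815 per library, and genic circles from 1350 to 3788 in control, from 2355 to 10708 in 5 Gy x2 and from 7305 to 17285 in 5 Gy x4. Total sequencing depth is unknown, and supporting reads carry no molecular identifiers, so the intervals below cover counting error only.

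The first question was whether receptor circles differed in number or in share between unirradiated and irradiated skin. Control libraries 1 to 4 held 2, 8, 17 and 3 receptor circles. The 5 Gy x2 libraries held 25, 45, 31 and 5, and the 5 Gy x4 libraries 30, 64, 50 and 35. All 5 Gy x4 libraries lay above all control libraries, whereas the 5 Gy x2 libraries overlapped both other groups. The means were 7.5 ± 6.86 in control, 26.5 ± 16.6 for 5 Gy x2 and 44.75 ± 15.4 for 5 Gy x4 (SD, n = 4 each). The 5 Gy x4 mean was 5.97-fold that of control (two-sided exact permutation test, p = 0.0286, the smallest that 4 libraries against 4 allow; 0.229 after Benjamini-Hochberg adjustment over 12 tests). The 5 Gy x2 mean was 3.53-fold that of control (exact p = 0.0857, adjusted 0.257). On leaving out single libraries, exact p of that comparison ran from 0.0286 (without 5 Gy x2 replicate 4) to 0.2. Control replicate 3 weighed on both ratios: without it the control mean was 4.33, and the ratios were 10.3 for 5 Gy x4 (exact p = 0.0286) and 6.12 for 5 Gy x2 (exact p = 0.0857). Leaving out control replicate 1 gave ratios of 4.79 (exact p = 0.0286) and 2.84 (exact p = 0.171). Control replicate 3 also held the most supporting reads (197061) and eccDNA (10389) of the control libraries. Between the irradiated groups the ratio of means was 1.69 (exact p = 0.171, adjusted 0.4).

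All genic circles moved in the same order, with means of 2615.75 ± 1214.35, 7432.75 ± 3829.29 and 12341.5 ± 5293.75 (SD, n = 4). As a share of genic circles, receptor circles made up 0.110%, 0.228%, 0.449% and 0.222% in control libraries 1 to 4. The share was 0.377%, 0.420%, 0.309% and 0.212% in the 5 Gy x2 libraries and 0.364%, 0.387%, 0.289% and 0.479% in the 5 Gy x4 libraries. The 3 groups overlapped, and the exact Clopper-Pearson 95% intervals of single libraries were wide, from 0.0134% to 0.398% in control replicate 1 and from 0.334% to 0.666% in 5 Gy x4 replicate 4. Group means were 0.252% ± 0.142, 0.330% ± 0.0907 and 0.380% ± 0.0783 (SD, n = 4), and no pair of groups differed by more than the spread between libraries (exact p = 0.429 for 5 Gy x2 against control, 0.2 for 5 Gy x4 against control and 0.457 between the irradiated groups; adjusted 0.610, 0.4 and 0.610). Pooled over libraries, the share was 30 of 10463 circles in control (0.287%, 95% interval 0.194% to 0.409%), 106 of 29731 for 5 Gy x2 (0.357%, 0.292% to 0.431%) and 179 of 49366 in 5 Gy x4 (0.363%, 0.312% to 0.420%).

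**Figure D1:**
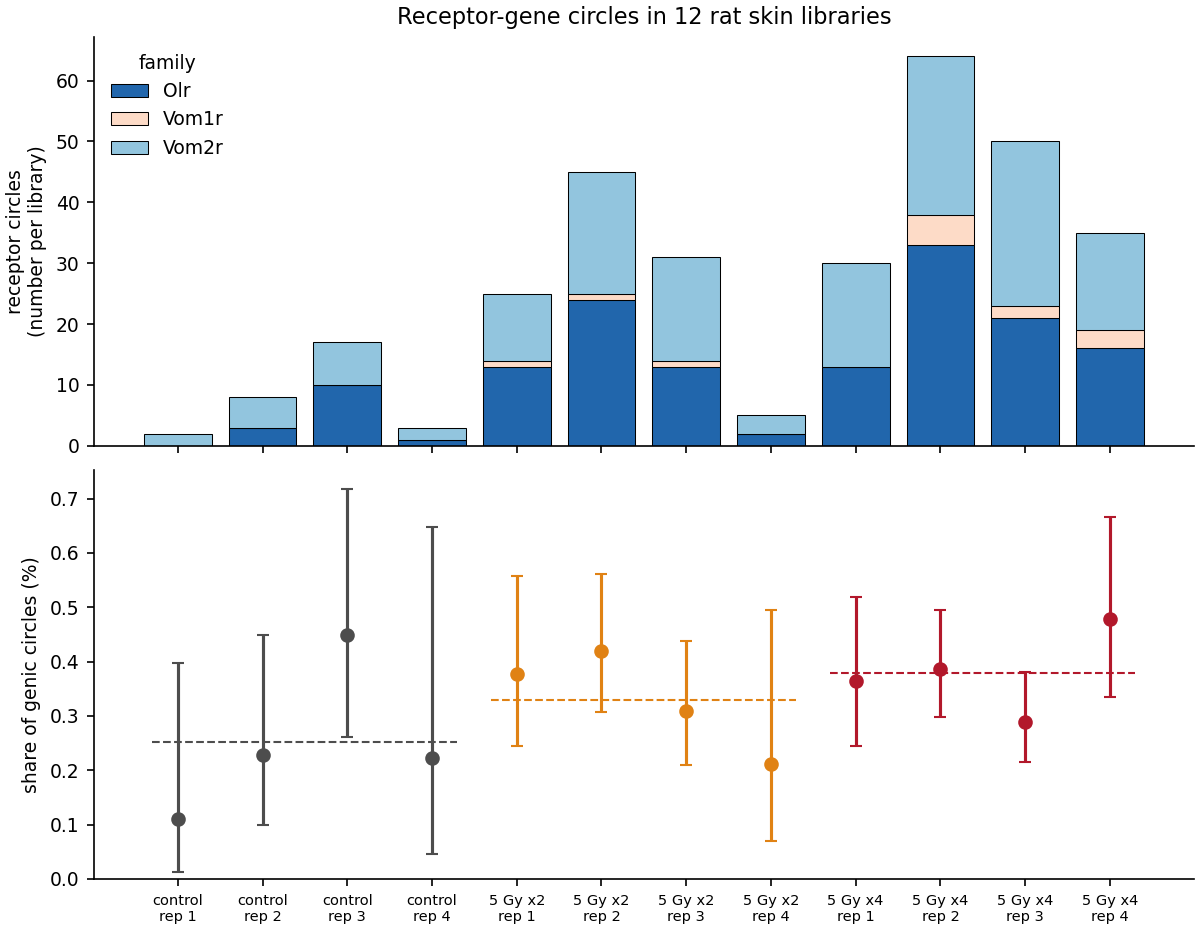
Receptor circles per library as a number (top, bars divided by family) and as a percent of the library's genic circles (bottom, points with exact 95% intervals; dashed lines are group means, n = 4). The number is higher in all 5 Gy x4 libraries (30 to 64) than in all control libraries (2 to 17), whereas the shares overlap.

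Supporting reads gave the same order of group means, with more scatter. Receptor circles held 5, 34, 143 and 166 reads in control, 468, 124, 204 and 26 in 5 Gy x2, and 174, 475, 188 and 696 in 5 Gy x4. Their share of genic reads averaged 0.206% ± 0.203, 0.240% ± 0.0983 and 0.367% ± 0.156 (SD, n = 4), and the groups overlapped (exact p = 0.771, 0.257 and 0.229 in the order of comparisons above; adjusted over 24 tests 0.771, 0.419 and 0.419). In control replicate 4 a single circle in Vom2r37 held 136 of the 166 receptor reads (81.9%).

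Both large receptor families contributed about equally to the entries and in every group. Olr genes gave 147 entries, Vom2r genes 146 and Vom1r genes 13. Control libraries held 0, 3, 10 and 1 Olr circles, the 5 Gy x2 libraries 13, 24, 13 and 2, and the 5 Gy x4 libraries 13, 33, 21 and 16. The Olr share of genic circles averaged 0.106% ± 0.112, 0.159% ± 0.0632 and 0.174% ± 0.0436 (SD, n = 4; exact p = 0.457, 0.286 and 0.743; adjusted 0.522, 0.419 and 0.771). Without control replicate 3 the control mean was 0.0532%, and 5 Gy x2 and 5 Gy x4 were 0.106 and 0.121 percentage points higher (exact p = 0.0857 and 0.0571). Leaving out control replicate 1 instead, which held 0 Olr circles, gave differences of 0.0175 and 0.0333 points (exact p = 0.8 and 0.629). Vom2r circles numbered 2, 5, 7 and 2 in control, 11, 20, 17 and 3 in 5 Gy x2 and 17, 26, 27 and 16 in 5 Gy x4. The Vom2r share averaged 0.146% ± 0.0305, 0.162% ± 0.0250 and 0.185% ± 0.0326 (SD, n = 4; exact p = 0.4, 0.143 and 0.343; adjusted 0.48, 0.343 and 0.433). Neither family's share separated the groups.

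Vom1r circles were rare. None was seen among the 10463 genic circles of the control libraries, which allows a share of up to 0.0287%. The 5 Gy x2 libraries held 1, 1, 1 and 0 (0.0101% of the pooled genic circles) and the 5 Gy x4 libraries 0, 5, 2 and 3 (0.0203%). Both irradiated shares lie under the limit that the control count allows, so a difference was not detectable at this depth (exact p = 0.143 for each dose against control, adjusted 0.343).

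The families differed in how many genes gave circles and how often. The 40 Vom2r genes with a circle were also all the Vom2r genes that the table names in any gene part or flank, with 3.65 entries per gene, and 14 of them had 1 call. For Olr the 99 genes with a circle were out of 346 named, with 1.48 entries per gene, and 80 had 1 call. For Vom1r they were 12 of 23, and 11 had 1 call. Per library, 2, 7, 18 and 4 receptor genes had a circle in control, 18, 35, 28 and 5 in 5 Gy x2, and 24, 50, 39 and 28 in 5 Gy x4. As a share of all genes with a circle this came to 0.370% ± 0.232, 0.468% ± 0.152 and 0.598% ± 0.0929 (SD, n = 4; exact p = 0.486, 0.143 and 0.171; adjusted 0.530, 0.343 and 0.374). Without control replicate 3, the control library with most receptor circles, the difference of 5 Gy x4 from control was 0.332 percentage points (exact p = 0.0286). Leaving out control replicate 1, the control library with fewest, gave 0.150 points (exact p = 0.314).

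Receptor circles lay in exons more often than other genic circles of the same library. The exon share of receptor circles was 50.0%, 37.5%, 41.2% and 0% (0 of 3 circles, exact 95% interval 0% to 70.8%) in control, 28.0%, 33.3%, 32.3% and 40% in 5 Gy x2, and 40%, 34.4%, 34.0% and 34.3% in 5 Gy x4. Over the 12 libraries it averaged 33.7% ± 12, against 11.5% ± 2.09 for all other genic circles (SD, n = 12), a difference of 22.3 percentage points. It was higher in 11 of 12 libraries and lower in control replicate 4, with its 3 receptor circles (two-sided exact sign-flip permutation test, p = 0.000977, adjusted over 4 tests 0.00293). Against circles of zinc finger genes (Zfp and Znf, a further large clustered family) the difference was 9.95 percentage points (exact p = 0.101), and the call was lost. The zinc finger exon share averaged 36.3% ± 8.78 in control, above the receptor mean of 32.2%. It was 17.1% ± 0.762 in 5 Gy x2 and 18.0% ± 1.71 in 5 Gy x4, below the receptor means (SD, n = 4). In the same order, it was 42.8%, 27.5% and 25.9% for keratin genes and 3.21%, 9.97% and 7.67% for cadherin genes. The exon share of receptor circles averaged 32.2% ± 22.1, 33.4% ± 4.97 and 35.7% ± 2.89 by group (SD, n = 4). The groups did not differ by more than the spread between libraries (exact permutation test, p = 0.971, 0.971 and 0.343, adjusted 0.971, 0.971 and 0.588). Without 5 Gy x2 replicate 4, 5 Gy x4 was 4.47 points above 5 Gy x2 (exact p = 0.0286). Pooled, exon circles were 36.7% of calls in control (exact 95% interval 19.9% to 56.1%), 32.1% in 5 Gy x2 (23.3% to 41.8%) and 35.2% in 5 Gy x4 (28.2% to 42.7%).

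The exon circles came mainly from the families with a single coding exon. Olr entries were exonic in 75 of 147 cases (51.0%) and Vom1r entries in 11 of 13 (84.6%), against 22 of 146 Vom2r entries (15.1%). The share over all other genic entries was 12.7%. In the same library the exon share averaged 50.4% ± 23.5 for Olr and 13.7% ± 10.8 for Vom2r circles (SD, n = 11 libraries with both), and Olr was higher in 10 libraries and equal in 1 (exact sign-flip permutation test, p = 0.00195; a comparison added after the data were seen). The order held in each group: exonic calls were 8 of 14 Olr against 3 of 16 Vom2r in control. They were 25 of 52 against 6 of 51 after 2 fractions and 42 of 83 against 13 of 86 after 4.

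Circles within 2 kb of a gene, which the rule leaves out, showed a further contrast between families. The table lists 207 entries within 2 kb upstream and 148 within 2 kb downstream of receptor genes, 355 in all, more than the 306 entries inside the genes. Flanks thus made up 53.7% of receptor entries, against 7.77% for other genes. The share was 69.4% for Olr, 53.6% for Vom1r and 4.58% for Vom2r. Among comparison families it was 30.8% for keratin genes (Krt and Krtap, structural proteins of epidermis and hair), 10.9% for zinc finger genes and 4.18% for cadherin genes (Cdh and Pcdh, cell adhesion). Gene length was not available on the mapped build, so these shares are not scaled to the length of the genes or flanks.

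**Figure D2:**
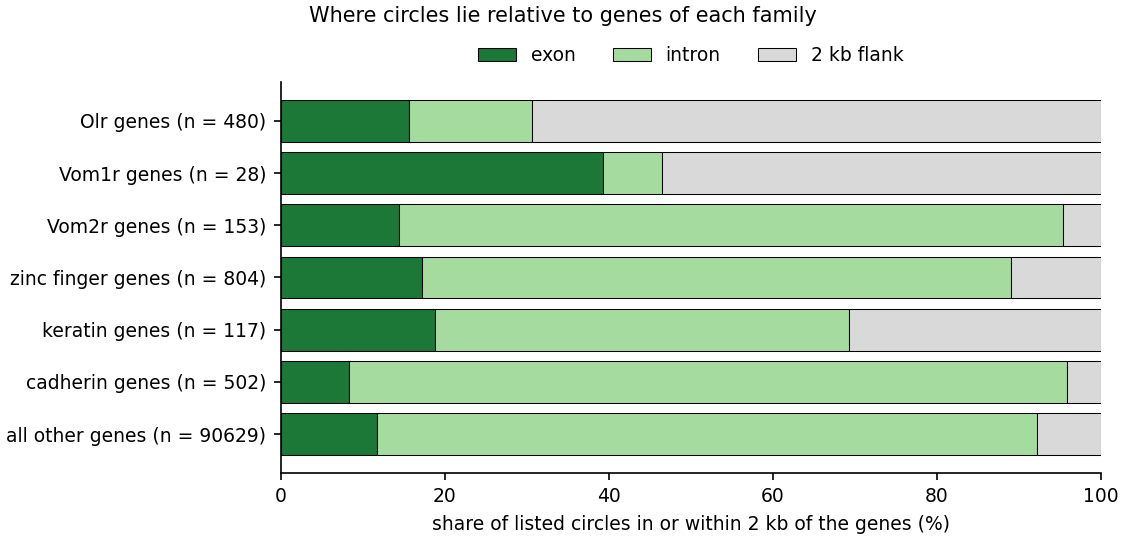
Parts of the gene in which circles lay, as percent of entries typed exon, intron or flank within 2 kb, for the 3 receptor families, comparison families and all genes that are not receptor genes. Flanks lead for Olr (69.4%) and introns for Vom2r (124 of 146 genic entries).

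In length, receptor circles resembled other genic circles. They spanned 100 to 46617 bp with a median of 364 bp and quartiles of 338 and 387 bp; the median of other genic entries was 359 bp. Of the 306 entries, 65 were under 330 bp, 216 from 330 to under 420 bp, 18 from 420 to under 1000 bp and 7 at 1000 bp or more. The class of 330 to under 420 bp held 70.6% of receptor entries and 66.4% of other genic entries. It was chosen because it holds most circles of the irradiated libraries, so its level there and its differences from control are a description. The p-values for those differences come from the values behind the choice and give no support for them. By library it held 50.0%, 25%, 64.7% and 33.3% of receptor circles in control, 80.0%, 68.9%, 80.6% and 60.0% in 5 Gy x2, and 70%, 81.3%, 72.0% and 57.1% in 5 Gy x4. Control replicate 3 lay within the range of the irradiated libraries and the other 3 control libraries below it. The means were 43.3% ± 17.7, 72.4% ± 9.86 and 70.1% ± 9.93 (SD, n = 4), with exact p = 0.0571 for either dose against control and 0.83 between doses (adjusted 0.229, 0.229 and 0.971). Without control replicate 3 the differences from control were 36.3 and 34.0 percentage points (exact p = 0.0286 each). Leaving out control replicate 2, the lowest, gave 23.0 and 20.8 points (exact p = 0.0857 each). In the other genic circles the share was 31.4% ± 11.6, 65.8% ± 4.54 and 67.4% ± 2.54, also lowest in control.

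Within a library, the class held 7.03 percentage points more of the receptor circles than of the other genic circles (exact sign-flip permutation test, p = 0.0352, adjusted 0.0469; higher in 10 of 12 libraries). That call was lost when at least 2 supporting reads were asked for (1.14 points, exact p = 0.818), and exact p rose to between 0.0586 and 0.0703 on leaving out any of 6 libraries: control replicates 1, 3 and 4, 5 Gy x2 replicates 1 and 3, and 5 Gy x4 replicate 2. Median lengths within a library averaged 418 bp for receptor and 351 bp for other genic circles, higher in 7 and lower in 4 of 12 libraries (exact p = 0.864). The gap in the averages rested on control replicate 4, with medians of 1184 bp for its 3 receptor circles and 296 bp for the others. Without that library the mean difference was -7.73 bp.

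**Figure D3:**
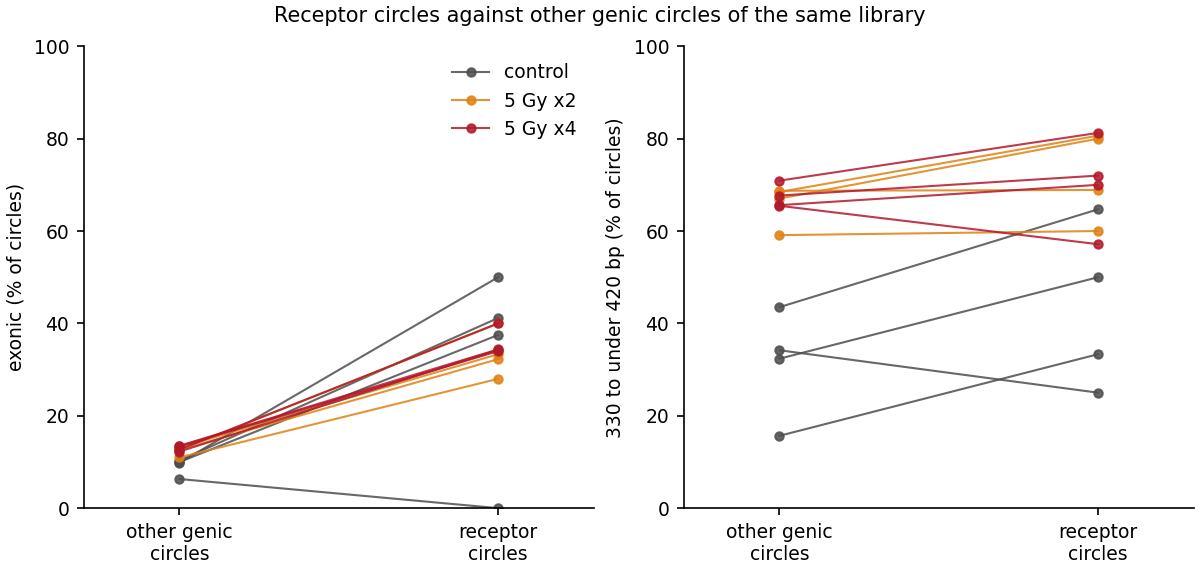
Receptor circles set against the other genic circles of the same library, for the exon share (left) and the share of 330 to under 420 bp (right), both in percent; each line joins the values of a library, coloured by group. Receptor circles are higher in 11 of 12 libraries for the exon share and in 10 of 12 for the length class.

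Receptor circles recurred less often between libraries than other genic circles. Of the 306 entries 299 (97.7%) were found in 1 library, compared with 95.8% of other genic entries. Within a library, 7.06% ± 9.02 of receptor circles were also present in another library, against 16.3% ± 11.8 of other genic circles (SD, n = 12; difference -9.27 percentage points; exact sign-flip permutation test, p = 0.00146, adjusted 0.00293; lower in 11 of 12 libraries). The 7 recurrent entries were 3 in Vom2r42, 2 in Vom2r37, 1 shared by Olr1470 and Olr1468 and 1 in Olr671, all intronic. In 4 of the 7, every library was irradiated, but control libraries gave only 30 of all 315 receptor calls. The count was not compared with other recurrent genic circles. A 356 bp circle in Vom2r37 at chr1:99051210-99051565 was found in 4 libraries, with 6 reads in 5 Gy x2 replicate 2, 4 in 5 Gy x2 replicate 3, 2 in 5 Gy x4 replicate 3 and 48 in 5 Gy x4 replicate 4. It was the only receptor circle in more than 2 libraries.

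Support per circle was low. The median was 4 supporting reads over libraries for receptor and other genic entries alike, 69 receptor entries had 1 read, and 74 of 306 (24.2%) carried the deposited label hconf against 26.4% of other genic entries; the tables do not define that label. The best supported circles all lay in Vom2r37, with 136, 108 and 94 reads. The longest were an intronic circle of 46617 bp in Vom2r42 (chr1:148985398-149032014; 6 reads in control replicate 2 and 3 in 5 Gy x2 replicate 2), an exonic circle of 28641 bp at Olr242 (chr1:172154452-172183092; 1 read in control replicate 3) and an exonic circle of 21489 bp at Olr1442 (chr10:44506880-44528368; 6 reads in 5 Gy x4 replicate 3).

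A few genes held many of the circles. The 12 genes with most calls had 120 calls, while 105 of the 151 genes had 1 call each. Gene length was not available on the mapped build, so calls are not scaled to it. The ranking is thus not one of circles per base, and entries of Vom2r42, which is second, were spread over 225441 bp. Vom2r37 (ENSRNOG00000043280, chr1) had 22 entries, all intronic, spread over 192016 bp, and 26 calls in 10 libraries. Its calls per library were 1, 0, 1 and 1 in control, 1, 3, 3 and 0 in 5 Gy x2, and 4, 3, 4 and 5 in 5 Gy x4. All 5 Gy x4 libraries were above all control libraries in number, and the 5 Gy x2 libraries overlapped both. Genic circles as a whole were also apart, at 7305 to 17285 in 5 Gy x4 against 1350 to 3788 in control. Vom2r37 was named for its total calls, and how many other genes were apart in number was not counted. Vom2r42 (ENSRNOG00000043159, chr1), a further type 2 vomeronasal receptor gene, had 17 entries, 2 of them exonic, and 20 calls: 0, 2, 0 and 0 in control, 5, 2, 1 and 0 in 5 Gy x2, and 2, 2, 5 and 1 in 5 Gy x4.

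Among the olfactory receptor genes, Olr1561 (ENSRNOG00000052915, chr11) led with 11 entries, all intronic and spread over 107413 bp. It had 1 call in control, 4 for 5 Gy x2 and 6 for 5 Gy x4. Olr1468 (ENSRNOG00000052919, chr10) had 9 intronic entries and 10 calls, 1, 3 and 6 by group. Olr1491 had 8 calls (0, 2 and 6) and Olr1206 had 6 (1, 3 and 2). The remaining genes of the 12 were of type 2: Vom2r35 with 8 calls (0, 3 and 5), Vom2r11 with 7 (1, 3 and 3), and Vom2r31 (2, 1 and 3), Vom2r60 (1, 2 and 3), Vom2r62 (3, 1 and 2) and Vom2r77 (0, 1 and 5) with 6 each.

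**Figure D4:**
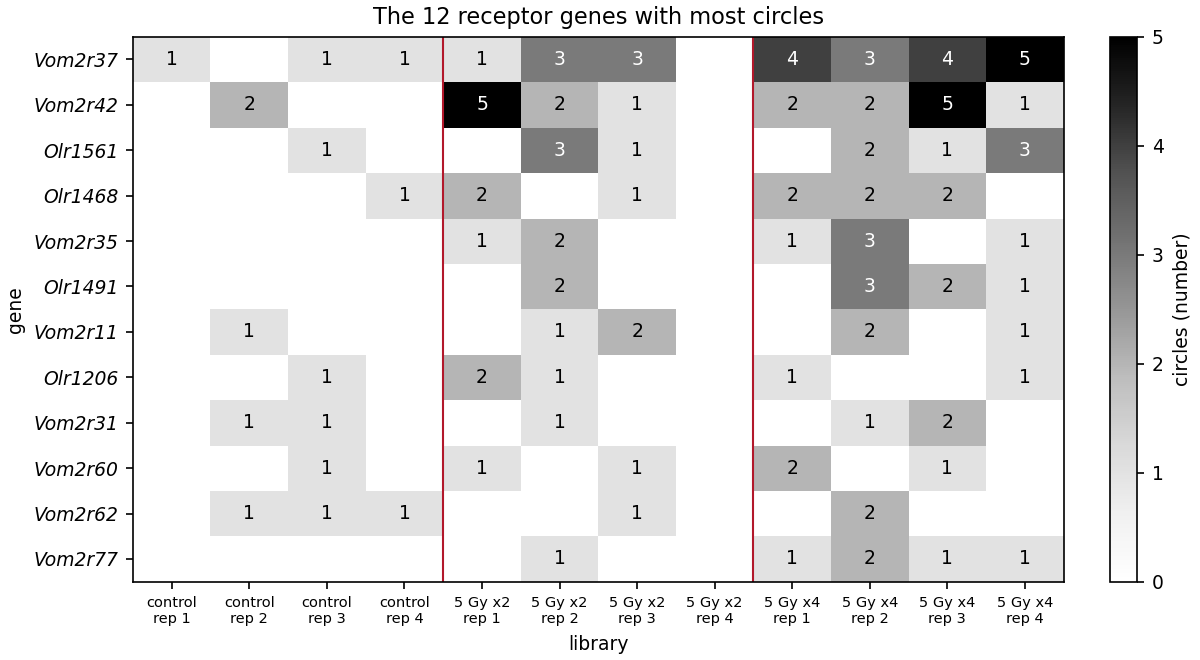
Circle calls in each of the 12 libraries for the 12 receptor genes with most calls; genes run down and libraries across, and shade and number give the calls. Vom2r37 has a call in 10 libraries and Vom2r42 in 8.

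Set against the number of genic circles in each library, no receptor gene passed. Of the 151 genes, only Vom2r37, Vom2r42, Olr1561 and Olr1468 reached the 10 circles asked for in the test of circles per gene (edgeR quasi-likelihood test, 2579 genes, Benjamini-Hochberg adjusted p under 0.05), and 0 of the 4 passed in any comparison. Over all genes, 0.31% passed in 5 Gy x2 against control, 0.969% in 5 Gy x4 against control and 0% between the irradiated groups, while 208, 297 and 105 genes had an unadjusted p under 0.05. For 5 Gy x4 against control, the edgeR log2 fold change in share was 0.17 (SE 0.90, adjusted p = 0.934) for Vom2r37, 0.08 (SE 1.09, adjusted p = 0.970) for Vom2r42, and 0.30 (SE 1.40, adjusted p = 0.934) for both Olr1561 and Olr1468. The lowest unadjusted p of the 4 genes in any comparison was 0.498. DESeq2, TMM scaling and the replicate block called 0 of the 4 as well. Receptor genes have related copies, and how reads that match several copies were handled is not given in the sources used here, so counts of single genes are uncertain.

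A stretch of 6124 bp in an intron of Vom2r37 (chr1:99051210-99057333, rn6) was the densest place of all receptor genes. It held 9 entries and 12 calls from 7 libraries, 6 irradiated and 1 control, and 441 supporting reads, 16.3% of all reads on receptor circles. Of all 315 receptor calls, only 30 were in control. All entries of the stretch carried the deposited label conf, as did 45 of the 306 receptor entries. The circles were of different sizes and mostly had different ends. A circle of 199 bp had 108 reads in 5 Gy x2 replicate 1, and a circle of 3485 bp starting 23 bp further on had 136 reads in control replicate 4. In 5 Gy x4 replicate 4, circles of 457 and 2083 bp shared the start at 99053836 and had 94 and 28 reads.

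**Figure D5:**
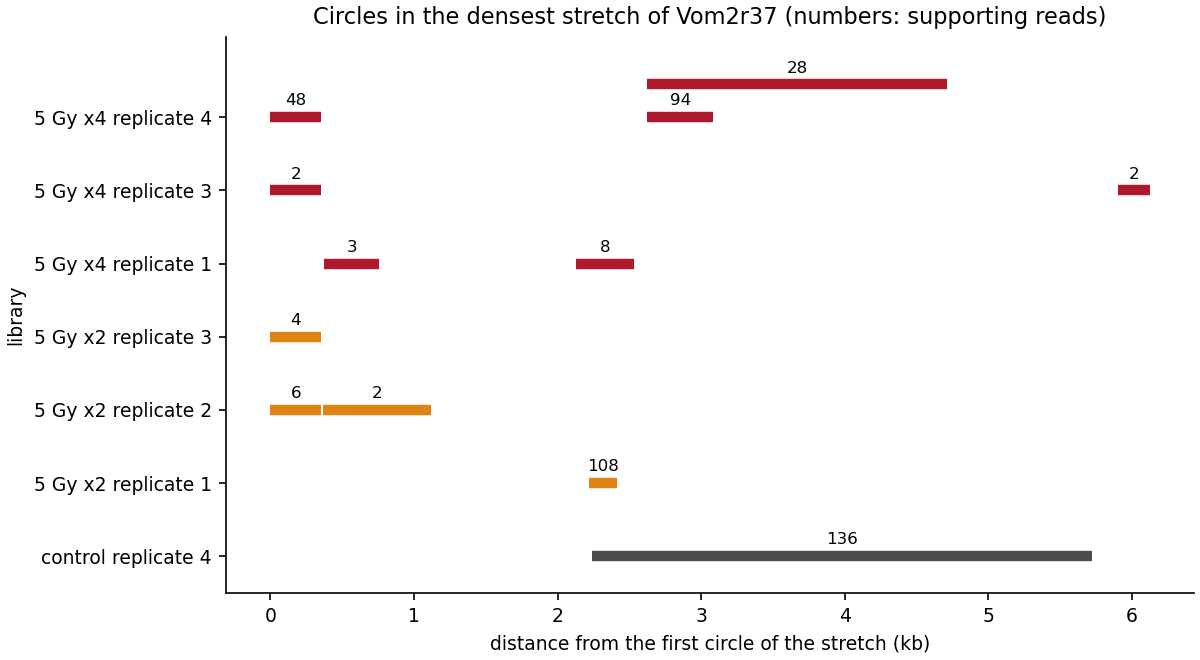
Circles in the densest stretch of Vom2r37 by library, drawn to scale as bars against the distance in kb from the first circle of the stretch; the number over each bar is its supporting reads in that library. The circle at 0 kb is in 4 libraries, and the circle with most reads (136) is in control replicate 4.

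By position, receptor entries were unevenly spread over chromosomes. Every entry lies in a receptor gene by the rule, and no map of all receptor genes was used. Whether circles follow the clusters of those genes was therefore not tested. Chromosome 1 held 118 of the 306 entries (38.6%), against 11% of all genic entries. Chromosome 3 held 32, chromosome 10 held 27 and chromosome 12 held 19 (6.21% against 2.60% of genic entries). Joining entries with gaps under 1 Mb gave 60 groups, of which 17 held a single entry and 10 held at least 10 entries, 159 in all. The largest were chr1:148945458-149578936 with 23 entries, chr1:98922547-99114562 with 22, and chr3:75390240-78790251 with 22 entries in 14 Olr genes. Overlap with another entry of the set was found for 27 of 306 entries (8.82%), and for 9.47% of other genic entries.

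The regions rich in receptor circles had fold changes in both directions against control. In 10 Mb windows of the genome, counting all eccDNA and not receptor circles alone, 13 windows held at least 10 receptor entries, 206 in all. They were chosen by entries of these same libraries, and only 30 of the 315 receptor calls were in control. The choice thus rests mostly on the irradiated libraries, and the values below describe these windows only. In 5 Gy x2 against control, 3 of the 13 passed (edgeR, adjusted p under 0.05), 1 higher and 2 lower, beside 29.4% of the 286 windows tested. In 5 Gy x4 against control 2 passed, both lower, beside 34.3%, and between the irradiated groups none passed, beside 0%. Leaving out single libraries gave 2 to 4 of the 13 in either comparison with control. The median log2 fold change of the 13 windows was -0.05 and -0.06 in the comparisons with control, and that of all windows 0.09 in both. The split of all called windows depended on the scaling: 45 were higher and 39 lower in 5 Gy x2, and 28 higher and 44 lower with TMM, which moved the median of all windows to 0.02.

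The windows that fell were the same at both doses. The window at 140 to 150 Mb of chromosome 1, which holds Vom2r42, averaged 42.0 ± 16.6 circles in control, 72.3 ± 32.3 for 5 Gy x2 and 116.5 ± 39.8 for 5 Gy x4 (SD, n = 4). Scaled to all eccDNA, its log2 fold change was -0.75 (SE 0.15, edgeR adjusted p = 3.40e-05) in 5 Gy x2 and -0.76 (SE 0.15, adjusted p = 4.52e-06) in 5 Gy x4. The first 10 Mb of chromosome 12, which hold Vom2r60, had log2 fold changes of -0.75 (SE 0.17, edgeR adjusted p = 0.000147) and -0.87 (SE 0.16, edgeR adjusted p = 2.59e-06). The window at 40 to 50 Mb of chromosome 11, which holds Olr1561, was 0.50 higher in 5 Gy x2 (SE 0.19, edgeR adjusted p = 0.0380), but adjusted p was 0.0792 with TMM and 0.0756 with DESeq2. The window at 10 to 20 Mb of chromosome 7 missed the threshold in 5 Gy x4 (log2 fold change -0.44, edgeR adjusted p = 0.0855) but passed it with TMM (-0.52, adjusted p = 0.0432) and with DESeq2 (-0.51, adjusted p = 0.0296). The comparisons share the control libraries. Among receptor circles, those on chromosome 12 were 4 of 30 calls in control (13.3%, exact 95% interval 3.76% to 30.7%). They were 8 of 106 for 5 Gy x2 (7.55%, 3.31% to 14.3%) and 7 of 179 in 5 Gy x4 (3.91%, 1.59% to 7.89%). The intervals overlap, single libraries held 0 to 4 such circles, and a difference between groups was not tested. These shares were not set against those of all genic circles on chromosome 12 by group.

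Ratios to other gene families served as a scale within each library. On the log2 scale the ratio of receptor to zinc finger circles averaged -2.01 ± 0.83 in control, -1.46 ± 0.37 for 5 Gy x2 and -1.19 ± 0.23 for 5 Gy x4 (SD, n = 4; exact p = 0.314, 0.114 and 0.229; adjusted 0.419, 0.343 and 0.419). The ratio to cadherin circles averaged -1.49 ± 0.62, -0.81 ± 0.26 and -0.58 ± 0.34 (exact p = 0.0857, 0.0571 and 0.314; adjusted 0.343, 0.343 and 0.419). Groups overlapped in both ratios. Without control replicate 3, exact p was 0.0286 for 5 Gy x4 against control in both ratios, with log2 differences of 1.12 and 1.13, and for 5 Gy x2 against control in the ratio to cadherin, with 0.90. Leaving out control replicate 1 gave 5 Gy x4 differences of 0.53 and 0.63 (exact p = 0.2 and 0.0857). The 5 Gy x2 difference in the ratio to cadherin was then 0.40 (exact p = 0.171).

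The ratio to keratin genes separated all 3 groups. This ratio was added after the data were seen, so it is a description. Keratin circles numbered 2, 8, 10 and 7 in control, 6, 13, 9 and 2 in 5 Gy x2, and 4, 13, 10 and 5 in 5 Gy x4, nearly level while receptor circles and genic circles differed. The log2 ratio averaged -0.11 ± 0.82, 1.74 ± 0.31 and 2.58 ± 0.32 (SD, n = 4), with differences of 1.85, 2.70 and 0.84. Each pair of groups was apart (exact p = 0.0286, adjusted 0.229 each), though p was 0.0571 for 5 Gy x2 against control without any of the 5 Gy x2 libraries, and for the irradiated groups without 5 Gy x4 replicate 1. As a share of genic circles, keratin circles were 0.280% ± 0.172, 0.0966% ± 0.0167 and 0.0634% ± 0.0131.

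Other chemosensory genes also gave circles. Among trace amine, taste and formyl peptide receptor genes (Taar, Tas1r, Tas2r and Fpr), 12 of 27 named genes had a genic circle, with 30 entries, of which 15 (50.0%) were exonic, and 7, 15 and 11 calls by group. Of 13 olfactory signalling genes 8 had circles, with 99 entries and 14, 35 and 56 calls; 40 of the entries lay in Ano2, a calcium-gated chloride channel of olfactory cilia. Cnga2 and Cnga4, subunits of the olfactory cyclic nucleotide-gated channel, Omp, the olfactory marker protein, and Gng13, a G protein gamma subunit, had 0 entries. Of 3 vomeronasal signalling genes 2 had circles, with 20 entries, 18 of them in Gnao1, the G protein alpha subunit of Vom2r neurons. Of 5 genes with roles in receptor choice 3 had circles, with 48 entries, 36 of them in the transcription factor gene Ebf1 and 10 in Kdm1a, a histone demethylase. Of these lists 2, 3, 1 and 2 genes were tested by edgeR for circles per gene, and 0 passed in any comparison, beside the 0.31%, 0.969% and 0% given above. Exonic entries were 8 of 99 (8.08%) in olfactory signalling genes, 0 of 20 in vomeronasal signalling genes and 1 of 48 in the receptor choice genes.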

How the data were processed

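Circular DNA was sequenced from rat back skin by Circle-seq in 12 libraries of 3 groups. The authors deposited, per the file headers, counts of supporting reads (split plus discordant reads) for each circle and library, without normalization, and 2 annotation tables. The submitters' processing notes name BWA, Picard, bedtools and the build rn6; the circle caller is not given in the sources used here. Starts are 0-based in the tables and 1-based here. In the annotation tables, 16 columns of per-library values were not used.

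The members and the gene lists were chosen with earlier results of these data known. Presence meant at least 1 read. Group means were compared by exact permutation tests over the 70 splits of 8 libraries, and receptor with other genic circles by exact sign-flip tests over 12 libraries, with Benjamini-Hochberg adjustment (12, 24 and 4 tests) in Python 3.11.15, pandas 2.3.3, numpy 2.4.6 and scipy 1.17.1. With 4 libraries a group the smallest p is 0.0286, so an adjusted 0.05 needs most tests to reach it. The families were written as 12 and 21 tests, and the keratin ratio brought the second to 24. Its 3 tests had the smallest exact p of that family, 0.0286 each. They make the adjusted p of the planned tests there smaller or leave it about the same. Adjustment over the 21 planned tests alone was not done. Circles per gene (at least 10 in all libraries together; library size, genic circles) and per 10 Mb window (filterByExpr; library size, all eccDNA) were fitted in edgeR 4.0.16 (R 4.3.3) with group as the only term over 12 libraries, with DESeq2 1.42.0 as an alternative; the scripts were tested on simulated data. Named genes were the 12 with most calls, circles in at least 3 libraries, the 3 longest and 3 best supported circles, any gene past the edgeR threshold and up to 4 members of each chemosensory list; the other recurrent circles and the genes listed at 0 entries were named after their values were seen. Alternatives were other minimum reads (2 or 5), hconf circles, circles of 1 library, length classes, flanks, other scalings, a replicate block and leaving out each library.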

Additional observations from a re-analysis of the deposited data

Results flagged for a closer look

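The exon share of receptor circles in 5 Gy x4 replicate 1 was 40%, apart from the other 3 libraries of its group, the nearest of which had 34.4%. The gap was 0.938 of the group's range, above Dixon's critical value for 4 samples. It was the only such value in 36 sets of 4 libraries examined, and chance gives about 1 in 20 sets.

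The deposited list of 157 larger circles (ecDNA) was not used in the comparisons. Of these, 14 hold at least 1 receptor gene, and 7 of the 14 were found in 1 library. The number per library was 1, 4, 5 and 3 in control, 6, 8, 3 and 1 in 5 Gy x2 and 2, 5, 7 and 1 in 5 Gy x4. The highest 5 Gy x2 library, with 8, and the highest 5 Gy x4 library, with 7, lay above the highest control library, with 5, while the groups overlapped and the difference was not tested.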

How the results depend on the processing

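Of 584 values recomputed under alternatives, 505 kept their direction and their side of an unadjusted p of 0.05 (counts: within 1.5 times). Asking for at least 2 reads turned the exon share of 5 Gy x4 minus 5 Gy x2 to -0.27 points and moved past the threshold the share of 330 to under 420 bp in 5 Gy x2 and 5 Gy x4 against control (49.9 and 48.1 points) and the Vom2r share of 5 Gy x4 (0.0740); the within-library difference in that length class was 1.14. At 5 reads these were -6.13 for the exon share of 5 Gy x2 and 57.9 and 39.3 for the length class. With hconf circles alone the number of 5 Gy x4 minus control was 9.5 (exact p = 0.0571), the exon share of 5 Gy x4 minus 5 Gy x2 -6.90, the length class 0.119, the Vom1r share -0.00896 and the Vom2r share of 5 Gy x2 minus control -0.0109. With circles of 1 library, Vom2r shares were -0.0340 and -0.0170 against control. Within 330 to under 420 bp the receptor share of 5 Gy x2 was -0.00601, exon shares -24.7 and -17.2 and Vom2r shares -0.0334, -0.0547 and, between doses, -0.0213; in other lengths the exon share between doses was -3.57, the Olr share -0.0133 and the Vom2r share of 5 Gy x2 -0.0280. Against zinc finger genes the exon difference was 9.95. The causes were not tested. The length class was chosen from the irradiated libraries, so its differences from control are a description under every setting.

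Genes called in 5 Gy x2 and 5 Gy x4 against control were 0 and 9 with TMM, 0 and 1 with DESeq2, 5 and 8 with filterByExpr (15 genes tested, fewer than the 2579), and 4 and 9 with no filter. The replicate numbers pair the libraries by name only: 3 of 12 pairs of equal number deviated together with a correlation over 0.1 (range -0.12 to 0.41). With the replicate block, the number of 5 Gy x4 minus control stayed at 37.25 and the keratin ratios at 1.85, 2.70 and 0.84, with exact p = 0.125, the smallest that 4 pairs allow; genes called in 5 Gy x2 were 5.

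Leaving out 1 library gave ranges of 12.8 to 26.2 for the number of 5 Gy x2 minus control; -9.49 to 7.17, -7.23 to 9.44 and 0.468 to 4.47 for the exon share (the first 2 lowest values without control replicate 4, the third without 5 Gy x2 replicate 1); 23.0 to 36.3, 20.8 to 34.0 and -6.41 to 2.03 for the length class; 0.00643 to 0.0115 and 0.0139 to 0.0276 for Vom1r; 0.0175 to 0.106, 0.0333 to 0.121 and -0.00883 to 0.0376 for Olr; -0.0237 to 0.128 for the read share of 5 Gy x2; 0.53 to 1.12 for the zinc finger ratio of 5 Gy x4; 0.40 to 0.90 and 0.63 to 1.13 for the cadherin ratio; 0.150 to 0.332 for receptor genes of 5 Gy x4; 1.48 to 2.15 and 0.71 to 0.95 for the keratin ratio of 5 Gy x2 and between doses; 5.74 to 8.50 for the length class and -7.73 to 77.8 bp for median length within libraries. Genes called ranged from 2 to 8 and 5 to 27, and windows called in 5 Gy x4 from 64 to 106. Few circles per control library (2 to 17) limit the precision of all shares there.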

Other observations

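Among the 14 ecDNA with a receptor gene, the number of receptor genes in the span ran from 1 to 66. An ecDNA listed at chr20:133363-4940184 (rn6) spans 38 receptor genes and was found in 6 libraries, 3 of control, 2 of 5 Gy x2 and 1 of 5 Gy x4, with 67 supporting reads in all. An ecDNA listed at chr8:38947209-45179635 spans 66 receptor genes and rested on 6 reads in 5 Gy x2 replicate 4. An ecDNA at chr9:8276022-12461674 with 1 receptor gene had 1690 reads in 9 libraries. Spans of several megabases are as listed, and whether all of the span is in the circle cannot be read from the tables.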
